A study of Mus musculus with 36 samples.

Results

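The genes examined here encode 10 subunits of the nucleosome remodelling and deacetylase complex (NuRD), a partner of the transcription factor Ikaros. They were the remodelling ATPases Chd3 and Chd4, the histone deacetylases Hdac1 and Hdac2, the scaffold proteins Mta1, Mta2 and Mta3, the zinc finger proteins Gatad2a and Gatad2b, and Mbd3. DNA methylation was read in CpG clusters, which are runs of at least 20 listed cytosines at most 100 bp apart. All clusters that overlapped a gene or the 2 kb on either side of it were taken (GENCODE M21 annotation, GRCm38). This rule gave 23 clusters of the 18009 in the tables, and each of the 10 genes had at least 1. All 23 were among the 16734 clusters with a value in every sample at 1 or more positions, so none was lost to a filter.

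The samples were 36 reduced representation bisulfite sequencing (RRBS) libraries of B3, a mouse pre-B cell line. In the Ikaros series the cells carried an MSCV retrovirus for HA-tagged wild type Ikaros fused to the ERt2 hormone-binding domain, followed by an IRES and GFP. In the Control series they carried the vector with ERt2 and GFP but without Ikaros. Each series was sampled at 0, 2, 6, 12, 18 and 24 h with 3 biological replicates per time point, 18 samples in all per series. The fusion protein is activated by 4-hydroxytamoxifen (4-OHT). The labels give 0.5 µM 4-OHT for all samples of both series, 0 h included, while the study's methods describe the 0 h cells as untreated. Each series came from 1 transduced population of cells, so the effect of the transgene and a difference between these populations cannot be told apart.

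NuRD joins nucleosome remodelling to histone deacetylation, and in lymphocytes a large share of Ikaros protein is known to be bound to it. Chd3 and Chd4 use ATP to move nucleosomes, and Hdac1 and Hdac2 remove acetyl groups from histone tails. The Mta proteins hold the deacetylases in the complex, and Gatad2a and Gatad2b link Mbd3 or its relative Mbd2 to the remodeller. Mbd3 is a member of the methyl-CpG-binding domain family that has lost high-affinity binding to methylated CpG. Promoters with many CpGs are usually free of methylation, while exons inside transcribed genes usually carry it.

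Both kinds of region are given by sequence, with the internal coding exons of Chd3 and Mbd3 because their clusters were methylated, and the start of Mbd3 because its cluster was not. Sequences were read from the GRCm38 reference and are given 5′ to 3′ on the strand of the gene. Capitals mark the CG dinucleotides that are listed in the tables.
Chd3 internal exon, chr11:69345353-69345606, - strand: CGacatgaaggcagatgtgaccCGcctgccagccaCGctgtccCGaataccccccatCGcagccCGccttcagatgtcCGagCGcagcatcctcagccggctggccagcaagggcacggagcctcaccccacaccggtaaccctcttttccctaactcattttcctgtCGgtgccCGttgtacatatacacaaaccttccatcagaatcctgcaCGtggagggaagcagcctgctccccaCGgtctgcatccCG
Mbd3 first exon and the intron behind it, chr10:80398932-80399231, - strand: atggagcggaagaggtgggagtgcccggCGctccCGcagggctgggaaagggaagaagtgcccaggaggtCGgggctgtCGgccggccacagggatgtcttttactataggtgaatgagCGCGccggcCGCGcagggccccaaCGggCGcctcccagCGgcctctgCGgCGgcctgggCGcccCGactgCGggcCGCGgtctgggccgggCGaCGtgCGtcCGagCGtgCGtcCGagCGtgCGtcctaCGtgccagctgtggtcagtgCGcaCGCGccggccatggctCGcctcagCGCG
Mbd3 internal exon, chr10:80395004-80395239, - strand: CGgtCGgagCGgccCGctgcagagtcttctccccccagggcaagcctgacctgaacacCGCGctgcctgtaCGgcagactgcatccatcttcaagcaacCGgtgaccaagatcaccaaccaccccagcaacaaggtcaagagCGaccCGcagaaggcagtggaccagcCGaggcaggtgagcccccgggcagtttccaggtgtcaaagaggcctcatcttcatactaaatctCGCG

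Most clusters of the NuRD genes were unmethylated in all libraries. In 21 of the 23 clusters the mean smoothed level was under 10%, with means from 0.142% to 4.15% and a median of 0.460%. The highest level of any single sample in these 21 clusters was 9.34%. The other 2 clusters had means over 90%, and no cluster lay between. Of all 16734 clusters, 48.6% had a mean under 10% and 40.2% had a mean over 90%. Depth cannot be given for these values because the tables hold no read counts, and the precision is described only by the spread between samples.

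**Figure D1:**
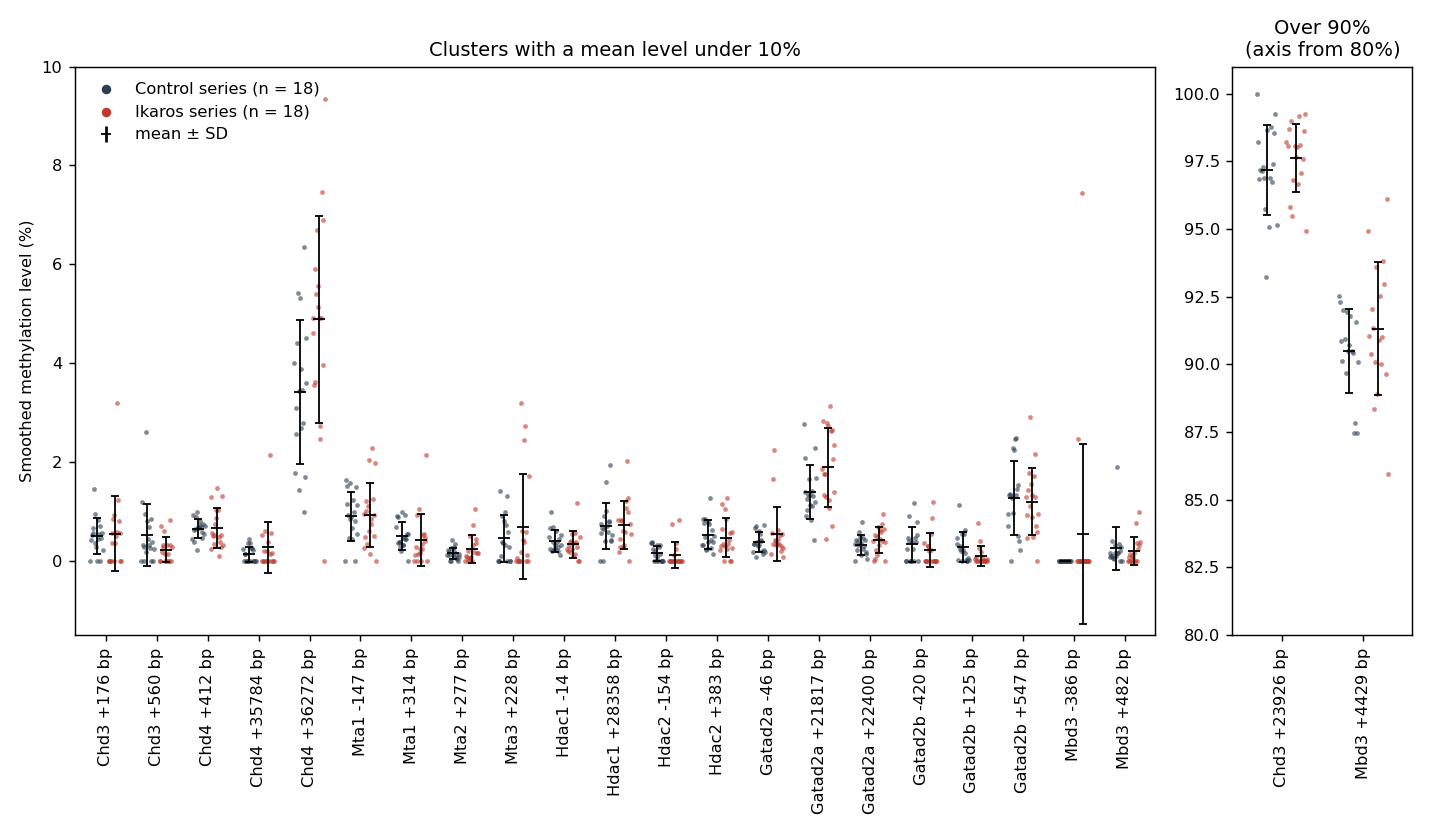
Smoothed methylation level (%) of the 23 NuRD gene clusters in each of the 36 samples, with Control in dark blue, Ikaros in red and bars for mean ± SD (n = 18 per series). Names give the gene and the distance of the cluster centre from the most upstream transcription start; 21 clusters have means under 10% in the left panel and 2 have means over 90% in the right panel, whose axis starts at 80%.

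Clusters are named below by the distance of their centre from the most upstream annotated start of the gene. A cluster was called a promoter cluster when it overlapped the 1000 bp on either side of any annotated start, and 20 clusters met this rule, none was a gene-body cluster and 3 lay in the flanks. The rule was generous, since short and internal transcripts also have annotated starts. With only the most upstream start of each gene, 16 clusters were promoter clusters, with a median of 0.421% and means from 0.142% to 1.24%. The other 4 then lay in gene bodies, namely the internal exons of Chd3 and Mbd3 and a pair of clusters in Gatad2a. Within 1000 bp of any annotated start of a protein-coding gene, 58.4% of 13134 clusters of the whole data set had a mean under 10%. Of the 7019 that also lay over a coding exon, the class that holds the internal exons of Chd3 and Mbd3, 58.9% had a mean under 10% and 32.6% a mean over 90%. Of the 1371 clusters over a coding exon but farther than 1000 bp from any such start, 3.28% had a mean under 10% and 83.7% a mean over 90%.

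The remodeller genes were unmethylated at their starts. At Chd3 +176 bp, over the first coding exon, the lowest, median and highest level was 0%, 0.434% and 3.19% in the Ikaros series and 0%, 0.493% and 1.45% in the Control series. The Chd4 cluster at +412 bp spanned the start and 1014 bp, with 0.0965%, 0.527% and 1.47% in the Ikaros series and 0.230%, 0.673% and 0.996% in the Control series. The ranges of the series overlapped at both genes. A second cluster of Chd3 at +560 bp, in an intron, had a mean of 0.382% ± 0.497 (SD, n = 36).

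The scaffold genes showed the same low level. The Mta1 cluster at -147 bp had a lowest, median and highest level of 0%, 0.894% and 2.28% in the Ikaros series and 0%, 0.912% and 1.64% in the Control series. For Mta2, whose cluster at +277 bp held 138 listed cytosines, the values were 0%, 0.161% and 1.05% in Ikaros samples and 0%, 0.129% and 0.422% in Control samples. For Mta3 at +228 bp they were 0%, 0.142% and 3.20% against 0%, 0.343% and 1.42%. Mta3 had the widest spread of the 3 genes, and 12 of its 36 samples were at 0%.

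The deacetylase genes were also unmethylated at their starts. Hdac1 at -14 bp had a lowest, median and highest level of 0%, 0.289% and 1.18% in the Ikaros series and 0.122%, 0.351% and 0.983% in the Control series. Hdac2 at -154 bp had 0%, 0% and 0.829% against 0%, 0.127% and 0.389%, and 20 of the 36 samples were at exactly 0%. The Hdac2 start thus had the lowest mean of all 23 clusters, 0.142% ± 0.212 (SD, n = 36). A further Hdac2 cluster over the first coding exon, at +383 bp, had a mean of 0.503% ± 0.340 (SD, n = 36).

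The linker genes and Mbd3 completed the picture at the starts. Gatad2a at -46 bp, a cluster of 1018 bp, had 0.0890%, 0.381% and 2.25% in the Ikaros series and 0.0879%, 0.341% and 0.732% in the Control series. Gatad2b at +125 bp had 0%, 0.0106% and 0.763% against 0%, 0.217% and 1.13%. Mbd3 at +482 bp, over the first coding exon, had 0%, 0.0862% and 1.00% against 0%, 0.152% and 1.91%. Ordered by the mean over all samples, the 10 start clusters ran from Hdac2 through Gatad2b, Mta2, Mbd3, Hdac1, Gatad2a, Chd3, Mta3 and Chd4 to Mta1 at 0.917% ± 0.571 (SD, n = 36). The difference between neighbours in this order was smaller than the SD of either neighbour at every step.

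The unmethylated state did not have the same reach at all genes. The sequences upstream of Mta1 and Chd4 are shown because the level rose most toward the upstream side there, and capitals again mark the listed CG dinucleotides.
Mta1 upstream, chr12:113097940-113098239, + strand: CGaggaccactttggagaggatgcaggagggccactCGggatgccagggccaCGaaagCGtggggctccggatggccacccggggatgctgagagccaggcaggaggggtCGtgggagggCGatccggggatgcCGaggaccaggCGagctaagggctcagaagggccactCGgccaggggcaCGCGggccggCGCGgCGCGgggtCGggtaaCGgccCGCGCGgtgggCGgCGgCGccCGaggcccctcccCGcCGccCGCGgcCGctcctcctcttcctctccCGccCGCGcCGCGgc
Chd4 upstream, chr6:125095887-125095980, + strand: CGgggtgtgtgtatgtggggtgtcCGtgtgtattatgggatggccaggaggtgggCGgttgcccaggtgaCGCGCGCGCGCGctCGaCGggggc

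At Mta1 the mean level was 10.4% at the farthest listed position, -338 bp from the start, over the 32 samples with a value there, and 11.5% at -286 bp over all 36. It was 0.329% at the other end of the cluster, 44 bp downstream of the start. The first 5 positions had a lowest, median and highest level of 0%, 9.29% and 40.3% in the Ikaros series and 0%, 9.21% and 19.3% in the Control series. The spread at this edge was large in both series, and only 6 of the 93 listed positions had a mean over 2%. At Chd4 the mean level was 7.30% at -94 bp and 0.132% at +919 bp. Its first 5 positions had 3.58% ± 1.23 in the Ikaros series and 2.86% ± 1.20 in the Control series (SD, n = 18 each). The remaining starts had lower edges, with 2.44% at -219 bp of Mta2 (32 samples), 1.52% at -339 bp of Hdac1 and at most 0.664% at any position of either Hdac2 cluster.

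**Figure D2:**
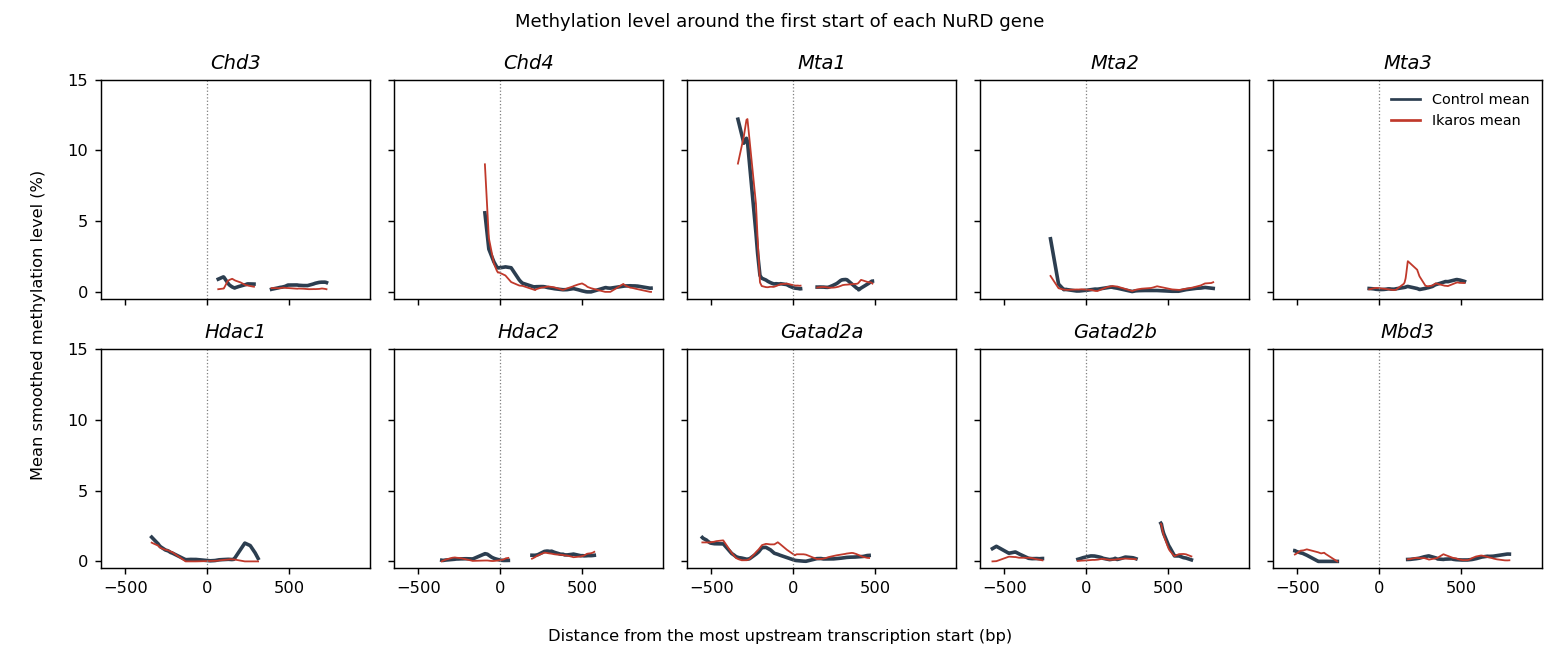
Mean smoothed methylation level (%) against the distance (bp) from the most upstream transcription start of the 10 NuRD genes, with 1 line per series and cluster and each position averaged over the samples that have a value there (28 to 36 of both series). The level stays low across the starts, and the upstream edges of Mta1 (10.4%, 32 samples) and Chd4 (7.30%, 36 samples) stand out.

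An internal start of Gatad2a was also unmethylated. A protein-coding transcript of Gatad2a begins more than 20 kb inside the gene. In the direction of the gene, a cluster began 13 bp downstream of its start while another ended 116 bp upstream. The downstream cluster, at +22400 bp (chr8:69973710-69974258), had a lowest, median and highest level of 0%, 0.424% and 0.954% in the Ikaros series and 0%, 0.340% and 0.793% in the Control series. The upstream cluster, at +21817 bp (chr8:69974387-69974747), had 0.442%, 1.81% and 3.14% against 0.432%, 1.32% and 2.77%. Within it the mean level was 5.72% at the far side and 0.356% at the side that faced the internal start. Both ranges overlapped between the series.

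The internal exons of Chd3 and Mbd3 were methylated in all 36 samples. The Chd3 cluster at +23926 bp (chr11:69345353-69345606) covered a coding exon and adjoining intron. Its lowest, median and highest level was 94.9%, 98.1% and 99.3% in the Ikaros series and 93.2%, 97.2% and 100% in the Control series. The only annotated start within 1000 bp was that of a transcript with a retained intron, 413 bp away. The level was nearly flat along this cluster, between 96.4% and 97.7% at all 21 positions.

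At Mbd3 the methylated cluster at +4429 bp (chr10:80395004-80395238) contained the annotated start of a shorter protein-coding transcript. Its lowest, median and highest level was 85.9%, 91.0% and 96.1% in the Ikaros series and 87.5%, 90.6% and 92.5% in the Control series. The mean level rose along the gene from 81.5% at the first position to 98.1% at the last. The first 5 positions had 84.6% ± 2.73 in the Ikaros series and 82.0% ± 4.35 in the Control series, and the last 5 had 98.1% ± 1.68 and 97.2% ± 2.24 (SD, n = 18 each). An annotated start inside a gene was thus unmethylated at Gatad2a and methylated at Mbd3.

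The 3 flank clusters lay at neighbouring genes, within 1000 bp of a start of Nop2 downstream of Chd4 and of Marcksl1 downstream of Hdac1. They were also low, with means of 0.204% ± 0.379 at +35784 bp of Chd4, 4.15% ± 1.93 at +36272 bp of Chd4 and 0.716% ± 0.470 at +28358 bp of Hdac1 (SD, n = 36 each). The second of these had the highest mean of the 21 unmethylated clusters and rose to 5.90% at its highest position. The Hdac1 flank cluster rose to 5.17% at +28079 bp, over 34 samples, and its mean rested on 27 of its 76 listed positions. The Gatad2b clusters also overlapped the uncharacterised gene 4930537H20Rik, so their values cannot be assigned to 1 of the genes.

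The cluster of Mbd3 at -386 bp rested on few positions. Only 6 of its 27 listed positions had a value in all samples, and 34 of the 36 samples were at exactly 0% over these. The exceptions were Ikaros 6 h replicate 2 with 7.45% and an Ikaros 0 h sample with 2.47%.

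The methylated exons had fewer CGs than most of the starts. The Chd3 exon cluster held 6.30 CG dinucleotides per 100 bp and the Mbd3 exon cluster 5.53, with ratios of observed to expected CpG of 0.728 and 0.599. The 21 unmethylated clusters ranged from 4.58 CG per 100 bp at Gatad2b -420 bp to 16.9 at Mta1 +314 bp. Gatad2b -420 bp, with a mean level of 0.277% ± 0.346 (SD, n = 36), was the single unmethylated cluster with fewer CGs than the methylated exons, and the other 20 had at least 6.47 CG per 100 bp. Among all clusters with 4 to 5 CG per 100 bp, 9.93% had a mean under 10%.

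**Figure D3:**
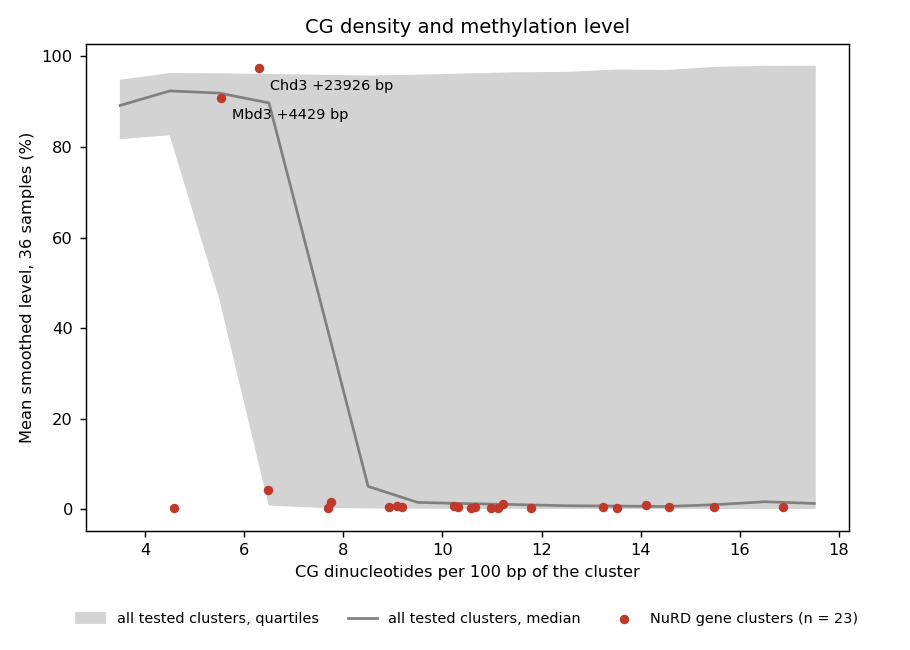
Mean smoothed level (%) of each NuRD gene cluster over 36 samples against its CG dinucleotides per 100 bp (red points, n = 23), over the median (line) and quartiles (shading) of all tested clusters in density bins with at least 100 clusters. The Chd3 and Mbd3 internal exons are the 2 high points, and the low point farthest to the left is Gatad2b -420 bp at 4.58 CG per 100 bp.

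RefSeq promoter windows of 300 bp (GRCm38.p6) were matched for 7 of the 10 genes, which gave 10 windows for Gatad2a, Gatad2b, Chd4, Hdac2, Mbd3, Mta1 and Mta2. The Ikaros core motif TGGGAA, searched on both strands, was found in 1 of them, the window at the internal start of Gatad2a, compared with 25.6% of 32851 windows of all genes. The MspI site CCGG, where RRBS fragments begin, was found in 9 of the 10 compared with 52.8% of all windows. In the CpG clusters themselves TGGGAA was found in 6 of the 23, or 26.1%, compared with 24.2% of 13962 clusters of 187 to 1018 bp, the range of lengths of the 23. These were Gatad2a -46 bp, Gatad2a +21817 bp, Mbd3 +482 bp, Chd4 +35784 bp, Chd4 +36272 bp and Hdac1 +28358 bp. A match only says that these letters are in the window or cluster.

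RRBS reads only CpGs near MspI sites, and most of each gene was not listed. Of the CGs in a gene and its flanks, 34.9% were listed for Mbd3, 23.4% for Mta2 and only 2.86% for Mta3, which has 1821 CGs. Within 1000 bp of the most upstream start the listed share was higher, from 44.8% at Mta3 to 69.2% at Gatad2a. The methylation of the remaining gene bodies was not measured here.

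The libraries differed in completeness. The share of empty values ranged from 0.139% to 3.18% in the Ikaros series and from 0.110% to 11.6% in the Control series, where Control 0 h replicate 1 was the highest. Levels of exactly 0 or 1 made up a median of 34.2% of values in Ikaros samples and 26.7% in Control samples, with highest shares of 59.1% and 36.2%. Control 24 h replicate 2 stood apart from its group: at the 832 clusters called between the series in its absence, it lay 75.3% of the distance toward the mean of the Ikaros samples. The other 17 Control libraries, each left out in the same way, lay between -6.12% and 18.6% of that distance, and the 18 Ikaros libraries between -11.99% and 20.6% of the distance toward Control. Of the B-lineage genes, Pax5, Ebf1 and Vpreb1 had unmethylated promoter clusters with means of 0.982%, 0.205% and 0.337%, and 7 of 11 such genes, Rag1 and Rag2 among them, had no cluster. The promoter clusters of the myeloid gene Cebpa had means from 97.8% to 98.2%, and those of the T cell gene Gata3 ranged from 9.16% to 97.8%.

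The first comparison asked whether the series differed at the NuRD genes over the whole time course. No NuRD gene cluster passed the test, neither at the starts nor at the methylated exons. Clusters were tested with limma on their mean M-values, log2 ratios of methylated to unmethylated level, with time point as a factor and Benjamini-Hochberg adjustment over all 16734 clusters. Of the 23 clusters, 0 passed an adjusted p of 0.05, and 0 were below 0.05 before adjustment. Of all clusters, 4.84% were called and 14.8% had an unadjusted p under 0.05. The M-values were computed from levels limited to 0.01 to 0.99, so differences among levels under 1% are not visible on this scale. The start clusters had means under 1%, while 40.2% of all clusters had means over 90%, so these shares are not like for like. On levels, 2 of the 23 were below 0.05 before adjustment, Chd4 +36272 bp and Gatad2a +21817 bp, compared with 15.2% of all clusters, and over the alternatives the count ran from 0 to 3. The difference in M-value, Ikaros minus Control, was above 0 in 17 clusters and below 0 in 6, compared with 63.6% above 0 among all clusters, with a median of 0.04 compared with 0.03. On levels it was above 0 in 14 and below 0 in 9, compared with 55.3% above 0 among all clusters, and the sign turned at Hdac2 -154 bp, Hdac2 +383 bp and Mta1 +314 bp. The ranges of the series overlapped in all 23, while 0.0478% of all clusters had ranges that did not overlap.

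**Figure D4:**
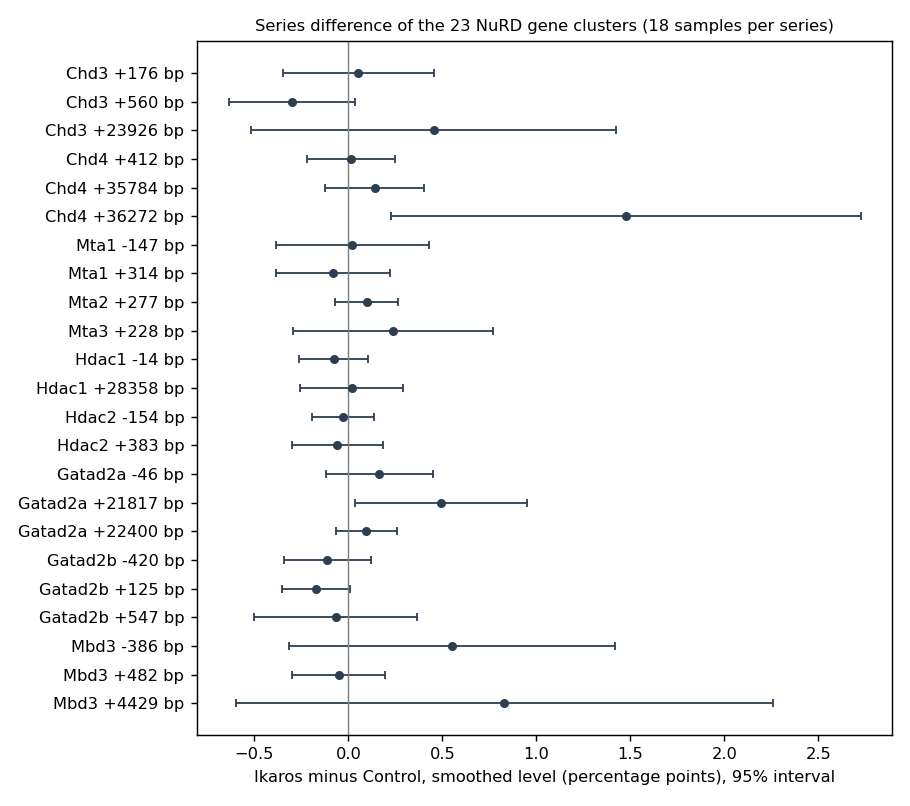
Difference in smoothed level, Ikaros minus Control, in percentage points with its 95% interval for the 23 NuRD gene clusters (18 samples per series, not adjusted for the number of clusters). The widest interval among the 21 unmethylated clusters, at Chd4 +36272 bp, runs from 0.226 to 2.73.

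The intervals limit how large a difference could have been. In 19 of the 21 unmethylated clusters the 95% interval of the difference in level lay within 1 percentage point of 0 on both sides. The lowest bound over these 21 was -0.638 points, at Chd3 +560 bp, and the highest was 2.73 points, at Chd4 +36272 bp. At the methylated exons the difference was 0.453 points (95% interval -0.518 to 1.42) for Chd3 and 0.830 points (95% interval -0.599 to 2.26) for Mbd3.

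The 5 clusters with the smallest p were Chd4 +36272 bp, Mta2 +277 bp, Gatad2a +21817 bp, Mbd3 -386 bp and Gatad2a -46 bp, all with higher means in the Ikaros series and none past the threshold. The Chd4 flank cluster at the Nop2 start had a lowest, median and highest level of 0%, 4.91% and 9.34% in the Ikaros series and 0.9988%, 3.45% and 6.35% in the Control series. The lowest Ikaros value came from Ikaros 24 h replicate 2, the library with the largest share of levels at exactly 0 or 1 (59.1%). The limma difference in M-value was 0.43 ± 0.22 (SE), with an adjusted p of 0.363. The level was higher in Ikaros in 13 of 18 pairs of the same time point and replicate number. Without Ikaros 24 h replicate 2 the limma difference in M-value was 0.56 with adjusted p = 0.0803, and with the shares of empty values and of levels at exactly 0 or 1 as covariates it was 0.83 with adjusted p = 0.182. Within replicate numbers 1, 2 and 3, which mark batches, the difference in level was 2.88, 0.136 and 1.41 points.

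At Gatad2a +21817 bp the difference in level was 0.494 points (95% interval 0.0362 to 0.951), and the limma adjusted p was 0.507 on M-values and 0.271 on levels. Within replicate numbers 1, 2 and 3 it was 0.163, 0.328 and 0.9899 points. For Mta2 +277 bp, the difference in level was 0.0965 points and the limma adjusted p was 0.495. The remaining NuRD gene clusters had adjusted p from 0.573 to 0.978.

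The clusters most like Chd4 +36272 bp across samples lay on other chromosomes. Among 8068 clusters that varied by at least 5 points and lay at least 20 kb away, the highest Pearson correlations of the level over the 36 samples were 0.621 at the start of 1700018B24Rik, 0.620 at the start of Chst1 and 0.619 near the start of Cartpt. The samples share library and completeness, and the values are given as a description.

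The second comparison followed each series over time. No NuRD gene cluster changed past the threshold over the 24 h in either series. These tests also used M-values, in which changes among levels under 1% are not visible. In the Ikaros series the limma F test called 0 of the 23 clusters, with 1 at an unadjusted p under 0.05 (5.22% of all clusters), and 0% of all clusters were called. In the Control series it called 0 of 23, with 2 at an unadjusted p under 0.05 (4.83% of all clusters), against 0.0120% of all clusters called. The test of a different course between the series called 0 of 23, with 0 at an unadjusted p under 0.05 (5.12% of all clusters), and 0% of all clusters.

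**Figure D5:**
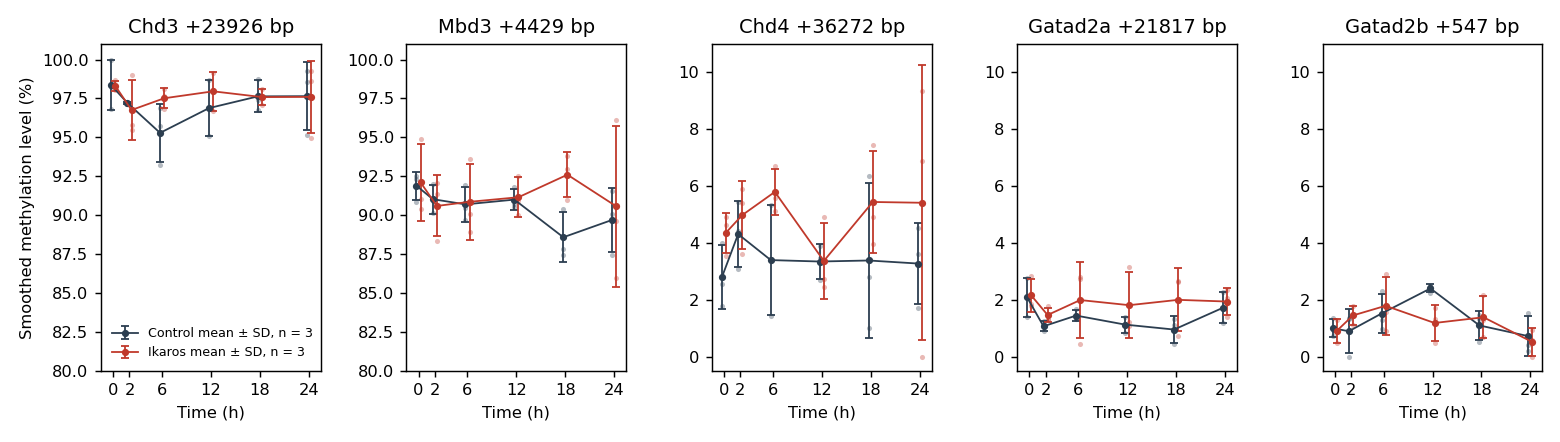
Smoothed methylation level (%) by time (h) for the internal exons of Chd3 and Mbd3 (axes from 80%) and for Chd4 +36272 bp, Gatad2a +21817 bp and Gatad2b +547 bp (axes to 11%), with points for samples and mean ± SD of 3 replicates, Control in dark blue and Ikaros in red. None of the courses changed past the threshold, and at 24 h the SD of the Ikaros samples at Chd4 +36272 bp reached 4.84.

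The methylated exons were high at each time point. The mean of the Chd3 exon lay between 96.8% and 98.3% at the 6 time points of the Ikaros series and between 95.3% and 98.4% in the Control series. The Mbd3 exon had 92.1% ± 2.45 at 0 h and 90.6% ± 5.16 at 24 h in the Ikaros series and 91.9% ± 0.907 and 89.7% ± 2.08 in the Control series (SD, n = 3 each). Its 24 h samples of the Ikaros series were spread widely, at 89.6%, 96.1% and 85.9%. At 18 h the values were 91.0%, 93.8% and 93.0% in Ikaros samples and 90.4%, 87.5% and 87.9% in Control samples. These did not overlap, but the limma adjusted p of the 18 h contrast was 0.672, with a difference in level of 4.02 points (95% interval 0.451 to 7.59).

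Among the unmethylated clusters the smallest p over time was at Hdac1 +28358 bp, the cluster at the Marcksl1 start, in the Ikaros series (limma, adjusted p = 0.924). Its levels were 0.829%, 0.179% and 0.453% at 0 h, 2.02%, 1.28% and 0.9897% at 18 h and 0%, 0.753% and 0.551% at 24 h. All 18 h samples lay above those of 0 h and 24 h, but overlapped those of 12 h, which ranged from 0.577% to 1.21%. In the Control series the same cluster had 0.439% ± 0.390 at 0 h and 1.18% ± 0.651 at 18 h (SD, n = 3 each).

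In the Control series the smallest p over time was at Gatad2b +547 bp, in an intron (limma, adjusted p = 0.991). The Control values at 12 h were 2.24%, 2.47% and 2.49%, above those at 0 h of 0.949%, 0.707% and 1.34%. The Ikaros values at 12 h were 1.34%, 0.490% and 1.72%, all below the Control values at that time. Over all times its lowest, median and highest level was 0%, 1.21% and 2.91% in the Ikaros series and 0%, 1.32% and 2.49% in the Control series, and it also had the smallest p for a different course (limma, adjusted p = 0.965). Gatad2a +21817 bp also had a p under 0.05 in the Control series (limma, adjusted p = 0.991), with 2.08% ± 0.689 at 0 h, 0.951% ± 0.462 at 18 h and 1.72% ± 0.548 at 24 h (SD, n = 3 each).

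The start clusters were low at each time point. Mta1 at -147 bp had means from 0.562% to 1.35% over the Ikaros time points and from 0.595% to 1.10% over the Control time points (n = 3 each). Chd3 at +176 bp had 0% in all 3 Ikaros samples at 0 h, 1.35% ± 1.59 at 12 h and 0.189% ± 0.328 at 24 h (SD, n = 3 each), and the highest sample of 12 h had 3.19%. The Control means of this cluster lay between 0.313% and 0.894%. Mta2 at +277 bp had means from 0.0580% to 0.534% in the Ikaros series and from 0.0705% to 0.271% in the Control series, and the highest came at 18 h in Ikaros samples and at 12 h in Control samples.

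The third comparison set the series side by side at each time point, 0 h included. The limma contrasts called 0 of the 23 clusters at each of the 6 times, against 0.215%, 0.203%, 0.0777%, 0.287%, 0.125% and 0.371% of all clusters from 0 to 24 h. At 0, 2, 18 and 24 h, 0 of the 23 had an unadjusted p under 0.05 on M-values, compared with 9.55%, 6.97%, 7.71% and 13.6% of all clusters. Differences among levels under 1% are not visible in M-values, so these counts say little about the start clusters. At 0 h Chd3 +176 bp had means of 0% in Ikaros and 0.313% in Control samples but no difference in M-value. At 6 h there was 1, compared with 5.81% of all clusters, namely Mbd3 -386 bp, which rested on the single sample named above. At 12 h there were 3, or 13.0% compared with 7.82% of all clusters, namely Gatad2b +547 bp, Chd3 +176 bp and Chd4 +35784 bp. The lowest adjusted p of these limma contrasts was 0.415. Over the 6 times this made 4 contrasts with an unadjusted p under 0.05, and over the alternatives the number ran from 3 to 9. On levels there were 5, of which 2 were at 18 h, at Mbd3 +4429 bp and Mta2 +277 bp. With 3 samples a group the intervals were wider, and between 10 and 13 of the 21 unmethylated clusters had an interval within 1 point of 0 at any time.

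The last comparison set 24 h against 0 h within each series. The limma contrasts called 0 of the 23 clusters in both series, against 0.0418% of all clusters in the Ikaros series and 0% in the Control series. A single cluster, Mta1 +314 bp over the first coding exon, had an unadjusted p under 0.05 in the Ikaros series (limma, adjusted p = 0.428), and 0 had one in the Control series, compared with 11.2% and 6.82% of all clusters. Its levels in the Ikaros series were 0%, 0.127% and 0.289% at 0 h and 0.410%, 2.14% and 0% at 24 h, so the groups overlapped and the highest value came again from replicate 2 of 24 h.

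Other genes of the NuRD pathway were read from the same tests. The other core subunits Mbd2, Rbbp4, Rbbp7, Chd5, Cdk2ap1 and Cdk2ap2 had 12 tested clusters. In the series difference 0 of these were called and 0 had an unadjusted p under 0.05 (limma), compared with 4.84% and 14.8% of all clusters. Of the 12 clusters, 11 were promoter clusters, 9 with a mean under 10% and 2 with a mean over 90%, and the median of the promoter clusters was 0.347%. The smallest p was at Cdk2ap1, a small subunit of the complex, with 0.624% ± 0.345 in Ikaros and 0.512% ± 0.294 in Control samples (limma, adjusted p = 0.538).

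Among 13 factors that bind or recruit NuRD, 12 had clusters and 3 of 36 clusters were called in the series difference, all higher in the Ikaros series, against 4.84% of all clusters in either direction and 3.71% higher. Of their 23 promoter clusters, 11 had a mean under 10% and 10 a mean over 90%. The zinc finger gene Zfp219 had 92.5% ± 2.27 in Ikaros and 90.3% ± 2.54 in Control samples at +6492 bp (limma, adjusted p = 0.0114). Zfp687, a partner of Zmynd8, had 3.31% ± 0.784 and 2.43% ± 0.541 at +452 bp (limma, adjusted p = 0.0153). Sall4, a stem cell factor, had 96.3% ± 1.81 and 93.6% ± 1.95 at +1753 bp (SD, n = 18 each; limma, adjusted p = 0.0389). The Sall4 call was lost on leaving out any 1 of 20 of the 36 libraries, with adjusted p up to 0.0681.

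Genes of the other complexes that hold Hdac1 and Hdac2 (Sin3, CoREST, MIER and MiDAC) had 50 tested clusters, and 1 was called, or 2% compared with 4.84% of all clusters. It lay at the start of Sin3b, a scaffold of the Sin3 complex, at +283 bp (chr8:72723351-72723785). Its lowest, median and highest level was 10.1%, 11.7% and 13.7% in the Ikaros series and 7.99%, 8.92% and 10.8% in the Control series. The difference in level was 2.55 points (95% interval 1.92 to 3.18), with limma adjusted p = 0.00108, and it was higher in Ikaros in 17 of 18 pairs. Within replicate numbers 1, 2 and 3 it was 2.67, 1.87 and 3.10 points. With the shares of empty values and of levels at exactly 0 or 1 as covariates, which differed between the series, the limma adjusted p was 0.140, and the calls at Zfp219, Zfp687 and Sall4 were lost as well. The difference in M-value with these covariates was 0.36 compared with 0.43 without them at Sin3b, 0.51 compared with 0.81 at Zfp219, 0.18 compared with 0.22 at Zfp687 and 0.73 compared with 0.69 at Sall4. The Sin3b call was also lost without replicate 3 (adjusted p = 0.118), and that of Zfp687 without any 1 of the replicate numbers. The difference in M-value was then 0.35 at Sin3b, and at Zfp687 it was 0.27, 0.18 and 0.21 without replicate 1, 2 and 3. In the tests over time and at single time points 0 clusters of these lists were called. Of all clusters, at most 0.0120% were called in the tests over time and from 0.0777% to 0.371% at single time points.

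The lineage marker genes were read from the same tests. Of 9 clusters of genes of other blood lineages 1 was called in the series difference, or 11.1% compared with 4.84% of all clusters. It lay in the body of Gata3 at +6982 bp, with a lowest, median and highest level of 88.5%, 91.1% and 95.1% in the Ikaros series and 78.6%, 88.2% and 90.7% in the Control series. The difference in level was 3.55 points (95% interval 1.89 to 5.21), with limma adjusted p = 0.00187, and it was higher in Ikaros in 15 of 18 pairs. This call was lost with the completeness covariates (adjusted p = 0.120) and without replicate 1 (adjusted p = 0.113), where the difference in M-value was 0.52 and 0.39 compared with 0.57. Of the 6 clusters of B-lineage genes 0 were called and 0 had an unadjusted p under 0.05, compared with 4.84% and 14.8% of all clusters. The smallest p was in the body of Ebf1, with 97.6% ± 1.47 in Ikaros and 98.5% ± 1.29 in Control samples (SD, n = 18 each; limma, adjusted p = 0.359).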

How the data were processed

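RRBS libraries of 36 B3 samples were examined. The authors trimmed the reads with Trim-Galore, mapped them to GRCm38 (mm10) with Bismark 0.10.1, capped unusually high coverage and smoothed the levels with BiSeq over 80 bp. They deposited each position's level as a fraction and an M-value on a log2 scale, computed from levels limited to 0.01 to 0.99. No coverage is part of these tables, so depth is unknown and no coverage minimum was set.

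Clusters of 20 or more listed positions, with gaps of at most 100 bp, were formed in Python 3.11.15. A cluster's value was the mean over its positions with a value in all 36 samples. Tests used limma 3.58.1 in R 4.3.3 over 16734 clusters with Benjamini-Hochberg adjustment, and percent levels are the deposited fractions times 100. The limma steps were tested on simulated data, where 24% of clusters changed by 1 residual SD and 100% of those changed by 2 were recovered in the series difference. With changes 3 times as large in the 24 h Ikaros samples alone, the shares were 16% and 95% for change over time in the Ikaros series, 6% and 92% for a different course and 44% and 100% for 24 h against 0 h. The clusters with the smallest residual SDs were not among those changed, and the shifts were added to M-values without their limits. The shares thus do not apply to changes among levels under 1%.

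Same replicate numbers share a batch in the labels, with number 2 in batch 2 at 0 h and in batch 3 later. The deviations of same-numbered samples of one time point had a mean correlation of -0.00665 over 18 pairs. The genes, lists and tests were chosen with earlier results of these data known. Values are given for the cluster nearest each start, the clusters past a threshold and those with the smallest p, 5 for the series difference and 3 for each test over time. In the further lists and the marker lists, clusters past the threshold or else the one with the smallest p are named.

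The alternatives were levels in place of M-values, other limits of the M-value, other rules for positions and clusters, replicate number or batch as a block, completeness covariates, another variance moderation, other start definitions, and samples left out. RefSeq promoter windows were matched by symbol for 7 of 10 genes.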

Additional observations from a re-analysis of the deposited data

How the results depend on the processing

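In all alternatives of the 6 comparisons, 0 of the NuRD gene clusters passed the threshold. The lowest adjusted p over the alternatives was 0.0803 for the series difference, 0.701 for change over time in the Ikaros series, 0.637 in the Control series, 0.675 for a different course, 0.127 at single time points and 0.132 for 24 h against 0 h. When a replicate block was added, the count of NuRD gene clusters called was 0 in each comparison, and the block changed no call of the named genes of the other lists. With only the most upstream start of each gene, 4 clusters counted as gene-body clusters in place of 0.

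The calls at Zfp219, Zfp687, Sall4, Sin3b and Gata3 kept their direction but each was lost under 2 or more settings, completeness covariates among them, with adjusted p of 0.378, 0.363, 0.244, 0.140 and 0.120. With wider limits on the M-value, those of Zfp687, Sall4 and Sin3b were 0.537, 0.0540 and 0.219. The differences in M-value were then 0.26, 1.11 and 0.35, compared with 0.22, 0.69 and 0.43. With all positions, the adjusted p of Zfp219 and Sall4 was 0.647 and 0.0799, and the differences were 0.43 and 0.52, compared with 0.81 and 0.69. With levels, the adjusted p of Zfp219 was 0.0849. Without replicate 1, 2 or 3, where fewer samples enter, Zfp219 lost the call for 2 of the numbers, Zfp687 for 3, Sall4 for 2, Sin3b for 1 and Gata3 for 1. Apart from that construction, the cause was not tested. The clusters Mbd3 -386 bp and Gatad2b -420 bp have no value where 20 complete positions are required. Depth is unknown, and levels under 1% lie below the limit of the M-value, so differences among them are not visible on that scale.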
